A study of Mus musculus with 16 samples.

Results

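The 5 genes described here encode enzymes that build sterols (Idi1, Sqle and Tm7sf2) and polyunsaturated fatty acids (Fads1 and Elovl5). They were taken by name from the authors' deposited table of 2438 genes, and all 5 were found there. That table held genes that the authors had already selected as different between the same libraries, at an adjusted p of at most 0.0497 over 16488 genes, so being listed is not a separate result. The data were RNA sequencing of duodenal epithelium, with 7 libraries from mice with Ephb4 knocked out in intestinal epithelial cells (KO) and 9 libraries from Ephb4 flox/flox mice (flox). All the mice were 8 weeks old at the start of a high fat diet that lasted 19 weeks, so neither group ate a control diet. The sources used here do not give the line that drives the deletion, and the labels do not say whether each library came from 1 mouse, so the p-values measure the spread between libraries. Values are normalised counts, that is reads divided by 1 size factor per library.

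Cholesterol is made from acetyl-CoA through the mevalonate pathway. IDI1 isomerises the building block isopentenyl diphosphate, farnesyl diphosphate is then joined to squalene, and SQLE oxidises squalene before it is closed to lanosterol, which later enzymes, the reductase TM7SF2 among them, turn into cholesterol. In many cells sterol synthesis genes are switched on together by the transcription factor SREBP2 when membranes run low on cholesterol. Dietary linoleic and alpha-linolenic acid are desaturated by FADS2, lengthened by the elongase ELOVL5 and desaturated again by FADS1 to make arachidonic and eicosapentaenoic acid. Duodenal enterocytes take up both cholesterol and fatty acids from the diet as well as making them.

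The promoter windows of 3 of the 5 members were available from RefSeq on GRCm38.p6, each from 250 bases before to 50 bases after the gene start in RefSeq. They are shown because NF-Y boxes, the CCAAT motif (ATTGG on the other strand), often accompany SREBP binding in sterol genes. Capitals mark every CCAAT or ATTGG. The windows are chr13:8885356-8885655 on the plus strand for Idi1, chr9:77917115-77917414 on the plus strand for Elovl5 and chr19:6067801-6068100 on the minus strand for Tm7sf2, and each sequence is written 5′ to 3′ on the strand of its gene.
Idi1: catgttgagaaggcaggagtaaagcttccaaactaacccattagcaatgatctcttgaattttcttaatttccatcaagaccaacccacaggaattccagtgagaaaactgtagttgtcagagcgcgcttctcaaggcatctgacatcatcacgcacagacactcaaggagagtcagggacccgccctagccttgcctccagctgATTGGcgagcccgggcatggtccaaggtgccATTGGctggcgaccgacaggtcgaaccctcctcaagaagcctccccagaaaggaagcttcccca
Elovl5: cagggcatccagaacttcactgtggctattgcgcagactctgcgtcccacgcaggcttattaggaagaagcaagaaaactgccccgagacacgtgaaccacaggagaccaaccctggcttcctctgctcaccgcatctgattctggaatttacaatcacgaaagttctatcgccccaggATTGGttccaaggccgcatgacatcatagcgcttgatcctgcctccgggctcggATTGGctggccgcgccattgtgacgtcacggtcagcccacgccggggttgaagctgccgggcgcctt
Tm7sf2: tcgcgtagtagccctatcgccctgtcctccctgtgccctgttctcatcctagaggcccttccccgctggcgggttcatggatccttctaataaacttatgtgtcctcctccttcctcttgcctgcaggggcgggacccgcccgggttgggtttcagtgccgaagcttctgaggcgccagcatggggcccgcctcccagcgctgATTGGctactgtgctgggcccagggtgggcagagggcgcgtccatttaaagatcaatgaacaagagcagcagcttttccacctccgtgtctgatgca
Sqle and Fads1 had no entry.

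Idi1 and Elovl5 each held 2 NF-Y boxes, and Tm7sf2 held 1. They began 45 and 14 bases before the RefSeq start in Idi1, 71 and 17 bases before it in Elovl5, and 47 bases before it in Tm7sf2. The RefSeq start of Elovl5 lies within 1 base of the deposited start, while that of Idi1 and that of Tm7sf2 lie inside the deposited gene interval, so their boxes do too. Of all 32851 promoter windows, 37.4% held at least 1 such box on either strand. The core of the sterol regulatory element, searched as TCACNCCAC on both strands, was in none of the 3 windows and in 1.24% of all windows. Elovl5 held 1 E-box, CACGTG, a motif present in 7.15% of all windows, and it did not overlap an NF-Y box. The GC box, GGGCGG or CCGCCC, occurred 1 time in Idi1, 2 times in Tm7sf2 and in 35.7% of all windows. NF-Y boxes were thus found both in Idi1 and Elovl5, which were listed as higher, and in Tm7sf2, which was listed as lower. A match is a description of letters only.

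Ephb4, the deleted gene, had 36.6 ± 21.7 normalised counts in KO and 210.5 ± 94.4 in flox (SD, n = 7 and 9) with no overlap, a log2 difference of -2.51 (two-sided exact permutation p = 8.74e-05, the smallest that 11440 arrangements can give). The deposited genes held 3592468 to 4555872 reads per KO library and 4237178 to 5316273 per flox library. The members held from 43 reads (Fads1 in the lowest library) to 758 reads (Sqle in the highest). In 5 flox libraries, replicates 4, 6, 7, 9 and 10, pancreatic acinar transcripts summed to more than 5000 normalised counts, a limit chosen after seeing the data, and the results without these libraries stand after the marker lists.

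In KO epithelium Idi1 and Elovl5 rose in the fit of all 16 libraries. That fit reused the libraries on which the authors had selected these genes, so it adds no separate support. Neither gene passed with the GC trend removed or with a marker score as a covariate. Each score was summed over listed markers, which had been selected as different between the same groups. With the non-epithelial, enterocyte or proliferation score only 7, 2 or 9 of 2339 genes passed, so losing a call there says little about a single gene. Sqle and Fads1 were listed as higher and Tm7sf2 as lower in the authors' deposited table, but these 3 did not pass the fit across all listed genes made here (limma, Benjamini-Hochberg over 16488 genes). Of the 5 members, 2 therefore passed limma as higher and 0 as lower, where 19.2% of 2339 listed genes passed as higher and 35.1% as lower (449 and 820 genes). These counts moved with single libraries, and between 518 genes (153 higher and 365 lower, without KO replicate 7) and 1462 genes (596 higher and 866 lower, without KO replicate 2) passed when 1 library was left out. With TMM scaling over the listed genes the split turned to 724 higher and 189 lower, and the median difference over all genes was -0.10 in place of -0.25 on the log2 scale. The members' directions were the same under both scalings. All 5 had an unadjusted p under 0.05, which the listing had largely fixed. By the authors' deposited values, 4 of the 5 were higher and 1 lower. Over all 16488 genes 6.97% were listed as higher and 7.81% as lower, and nothing is read from this, since the members were taken from that list.

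**Figure D1:**
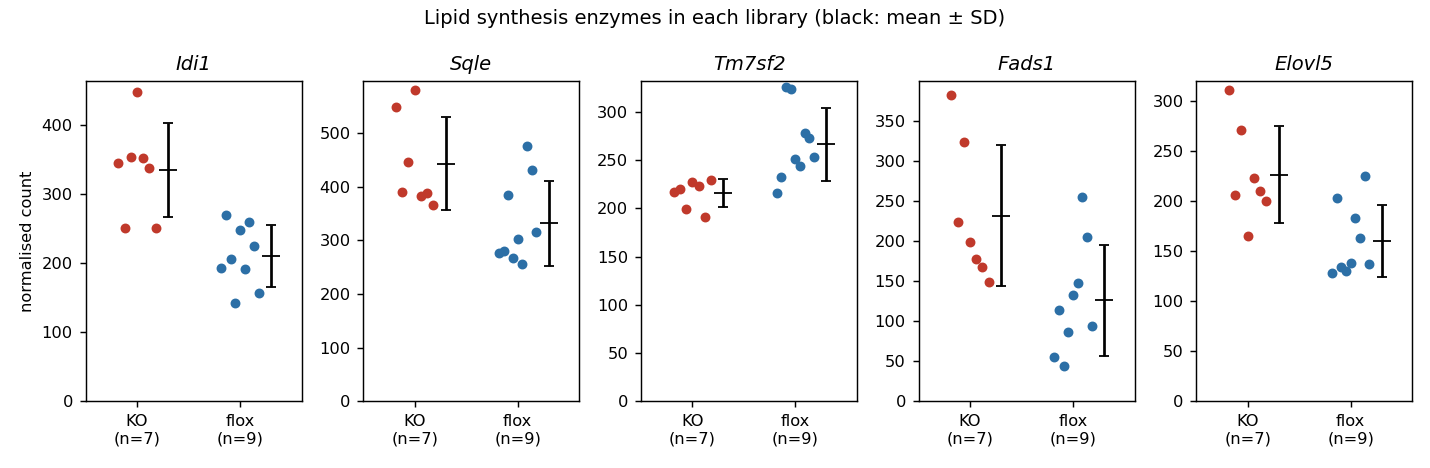
Normalised count (vertical axes, each from 0) of each enzyme gene in the 7 KO and 9 flox libraries, 1 point per library, with the group mean ± SD in black. All 7 KO libraries lay above the flox median for Idi1, Sqle, Fads1 and Elovl5 and below it for Tm7sf2, and the groups overlapped for every gene.

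Idi1, the isopentenyl diphosphate isomerase (ENSMUSG00000058258, chr13:8885501-8892451, plus strand, GRCm38), ran from 251 to 449 normalised counts with a median of 346 in the 7 KO libraries. In the 9 flox libraries it ran from 142 to 270 with a median of 207. Thus 5 of the 7 KO libraries were above the highest flox library, and the other two, replicates 2 and 8, were inside the flox range. Idi1 averaged 334.9 ± 68.0 in KO and 210.7 ± 44.5 in flox (SD, n = 7 and 9), which is 1.59-fold. Its log2 difference was 0.67 ± 0.15 (SE), with an adjusted p of 0.0136 in limma. It was the one member that passed limma whichever single library was left out, at adjusted p from 0.00808 to 0.0343. The call ended with the GC trend removed (log2 difference 0.23, adjusted p 0.852), with the enterocyte score (0.29, adjusted p 1), the non-epithelial score (0.51, adjusted p 1) or the proliferation score (0.48, adjusted p 0.539) as a covariate, and without the 5 flox libraries with pancreatic RNA (0.53, adjusted p 0.148). The annotated transcript Gm48574 overlaps the 5′ end of Idi1 on the other strand, and the sources used here do not say whether reads were counted by strand.

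Sqle, the squalene epoxidase (ENSMUSG00000022351, chr15:59315077-59331192, plus strand), ran from 365 to 580 normalised counts with a median of 390 in KO. In flox it ran from 255 to 476 with a median of 303. KO replicates 1 and 4 were above all flox libraries, while flox replicates 7 and 9 were each higher than at least 4 of the KO libraries. The means were 442.8 ± 87.2 in KO and 332.2 ± 79.2 in flox (SD, n = 7 and 9), 1.33-fold, and the log2 difference of 0.42 ± 0.14 (SE) had an adjusted p of 0.0667 in limma. It was 0.49 (adjusted p 0.0328) without flox replicate 7 and 0.48 (adjusted p 0.0462) without flox replicate 9. The authors' deposited table gave Sqle an adjusted p of 0.0442, at rank 2267 of its 2438 genes.

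Tm7sf2, a sterol reductase that acts after lanosterol (ENSMUSG00000024799, chr19:6062821-6077197, minus strand), ran from 191 to 229 normalised counts with a median of 220.2 in KO. In flox it ran from 216 to 325 with a median of 253. The KO libraries were close together, with a coefficient of variation of 6.74% against 14.2% in flox, and 2 of them were below the lowest flox library. The means were 215.6 ± 14.5 in KO and 266.3 ± 37.8 in flox (SD, n = 7 and 9), and the log2 difference of -0.29 ± 0.09 (SE) had an adjusted p of 0.0572 in limma. Without flox replicate 1 or 2 it passed, at -0.33 and -0.32 (adjusted p 0.0396 and 0.0447). With TMM scaling over the listed genes it was -0.15 (adjusted p 0.729), and edgeR on recovered reads gave -0.31 (adjusted p 0.0449). The deposited interval of Tm7sf2 runs over most of Vps51 on the same strand, whereas in GENCODE M21 Tm7sf2 ends at 6068373 and Vps51 starts at 6067842. How reads of this overlap were assigned is not given, so the count may hold reads of Vps51, which is not in the table.

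Fads1, the front-end desaturase (ENSMUSG00000010663, chr19:10182888-10196870, plus strand), varied most of the 5 by coefficient of variation, which was 37.9% in KO and 54.7% in flox. It ran from 149 to 382 normalised counts with a median of 199 in KO. In flox it ran from 43.6 to 255 with a median of 113. Flox replicates 7 and 9 were higher than most KO libraries, and the lowest flox library was 5.86-fold below the highest. The means were 231.6 ± 87.8 in KO and 125.9 ± 68.8 in flox (SD, n = 7 and 9), 1.84-fold. Its log2 difference was 0.99 ± 0.32 (SE), with an adjusted p of 0.0633 in limma. Without flox replicate 7 it was 1.14 (adjusted p 0.0316) and without flox replicate 9 it was 1.10 (adjusted p 0.0438). DESeq2 on recovered reads gave 0.88 (adjusted p 0.0397), and 0.54 (adjusted p 0.670) without KO replicates 1 and 3, the libraries with the highest values. Leaving out the highest KO libraries lowers the difference in advance, so nothing is read from this drop.

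Elovl5, the elongase whose product Fads1 desaturates (ENSMUSG00000032349, chr9:77917364-77984519, plus strand), ran from 165 to 311 normalised counts with a median of 210.0 in KO. In flox it ran from 128 to 225 with a median of 138. KO replicates 1 and 3 were above all flox libraries, and the other 5 lay inside the flox range. The means were 226.5 ± 48.7 in KO and 160.2 ± 35.6 in flox (SD, n = 7 and 9), 1.41-fold, and the log2 difference of 0.50 ± 0.15 (SE) had an adjusted p of 0.0433 in limma. This call was near its threshold. It was lost without KO replicate 1, 3, 5, 7 or 8 and without flox replicate 1, 3, 4, 5, 7 or 10, at log2 differences from 0.42 to 0.53 and adjusted p from 0.0505 to 0.105. It also ended with quantile normalisation (0.29, adjusted p 0.793), with the GC trend removed (0.17, adjusted p 1), with the enterocyte (0.09), non-epithelial (0.32) or proliferation score (0.07) as a covariate (adjusted p 1 for each), and without the 5 flox libraries with pancreatic RNA (0.58, adjusted p 0.152). Within groups Elovl5 went with the proliferation score, as described with the correlations.

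Per kilobase of gene length, the members' levels lay between 36.4 and 95.6 normalised counts. In KO they were 95.6 (Idi1), 79.8 (Sqle), 67.0 (Fads1), 64.3 (Elovl5) and 38.5 (Tm7sf2). In flox these levels were 60.1 for Idi1, 59.9 for Sqle, 47.6 for Tm7sf2, 45.5 for Elovl5 and 36.4 for Fads1. Fads1 was thus lowest in flox and Tm7sf2 lowest in KO. The deposited length of Tm7sf2 is 5593 bases, from an interval that runs over Vps51. The level of Tm7sf2 per kilobase, and so its place in this order, may therefore not be that of Tm7sf2 alone. All 5 had a mean between 100 and 500 normalised counts, where 357 listed genes were higher and 221 lower in KO. The median log2 fold change in the authors' deposited table was 0.48 for those higher and -0.41 for those lower, beside 0.67 for Idi1, 0.41 for Sqle, -0.31 for Tm7sf2, 0.88 for Fads1 and 0.50 for Elovl5.

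Whether the 4 higher genes differed from each other in the size of their change was tested with the ratio of 2 members within each library, which does not depend on the size factor. In none of the 6 pairs did the ratio pass the two-sided exact permutation test after adjustment over the 6. The ratio of Sqle to Fads1 had a log2 difference between KO and flox of -0.57, with a 95% interval from -1.25 to 0.09 by inversion of the exact permutation test (p = 0.0901, adjusted p 0.238). For Fads1 over Elovl5 the difference was 0.49, from -0.10 to 1.07 (exact permutation p = 0.0938, adjusted p 0.238). For Idi1 over Sqle it was 0.25, from -0.08 to 0.56 (exact permutation p = 0.119, adjusted p 0.238). For Idi1 over Fads1 it was -0.32, from -1.04 to 0.38, for Idi1 over Elovl5 0.17, from -0.21 to 0.57, and for Sqle over Elovl5 -0.08, from -0.48 to 0.34. These intervals include unequal changes as well as equal ones.

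Other genes of the same pathways came from lists chosen with earlier results of these data known. Of 23 sterol synthesis genes 5 were listed (21.7%, beside 14.8% of all genes adjusted over), 3 higher and 2 lower, and in limma 1 passed as higher (Idi1) and 0 as lower. Fdft1, the squalene synthase that stands between Idi1 and Sqle, averaged 550.8 ± 132 in KO and 420.0 ± 78.1 in flox, with a log2 difference of 0.38 (adjusted p 0.0913 in limma). In pathway order, Idi1, Fdft1 and Sqle, which act before lanosterol, were thus higher, and Tm7sf2, which acts after it, was lower, but of these 4 only Idi1 passed limma. Hmgcs1, which acts early in the pathway, was among the 18 not listed.

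**Figure D2:**
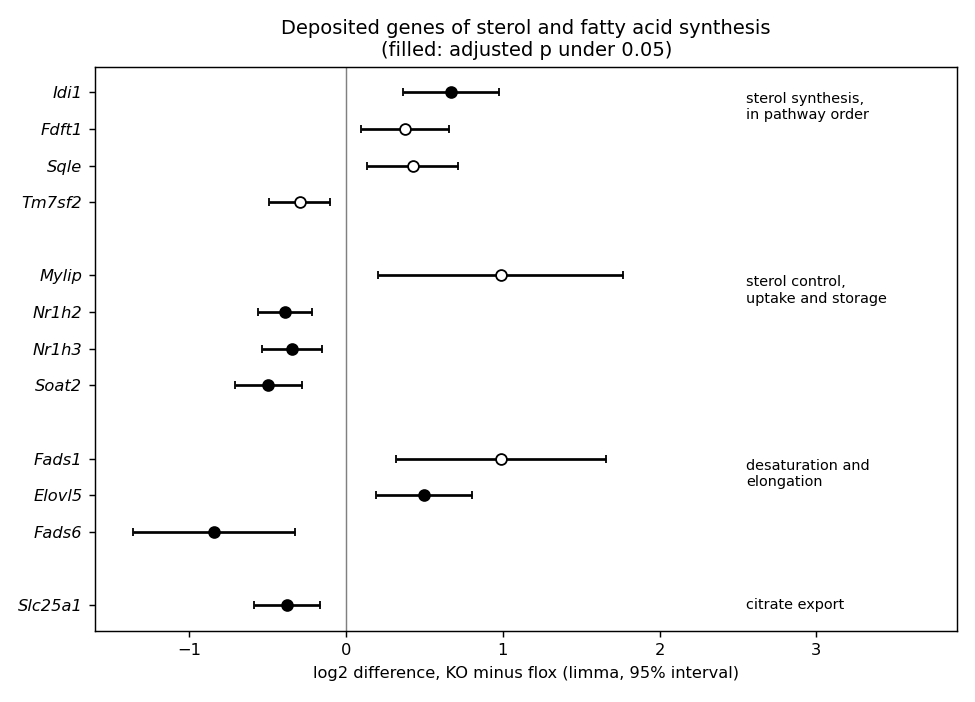
Log2 difference of KO minus flox with its 95% interval from limma (horizontal axis) for 12 deposited genes of the 4 lipid lists, grouped by role, with filled points at an adjusted p under 0.05. Idi1 at 0.67 and Elovl5 at 0.50 were the filled points to the right of 0, and Soat2, Nr1h2, Nr1h3, Fads6 and Slc25a1 those to the left.

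Of 18 genes of sterol control, uptake and storage 5 were listed (27.8%, beside 14.8% of all genes adjusted over), 2 higher and 3 lower. In limma 3 passed, all lower, where 35.1% of the 2339 listed genes passed as lower. Nr1h2 and Nr1h3, the oxysterol receptors LXR beta and LXR alpha, fell by 0.39 and 0.34 on the log2 scale (adjusted p 0.0126 and 0.0303 in limma). For Nr1h2 the groups did not overlap, at 1023 to 1613 normalised counts in KO and 1619 to 2008 in flox. Soat2, which esterifies cholesterol in enterocytes, fell by 0.49 (adjusted p 0.0106 in limma). Mylip, a ubiquitin ligase induced by LXR, had 60.0 ± 32.0 in KO and 27.1 ± 14.2 in flox (log2 difference 0.99, adjusted p 0.124 in limma). Srebf1 and Srebf2 were not listed.

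Of 16 desaturation and elongation genes 3 were listed (18.8%, beside 14.8% of all genes adjusted over), 2 higher and 1 lower. Beside Fads1 and Elovl5 this was Fads6, which fell by 0.84 on the log2 scale (adjusted p 0.0447 in limma), at 31.3 ± 11.5 in KO and 54.6 ± 13.3 in flox. Fads2, the desaturase that precedes Elovl5 in the pathway, was not listed. Of 12 genes of fatty acid synthesis from acetyl-CoA only 1 (8.33%) was listed, Slc25a1, the mitochondrial citrate carrier. It fell by 0.38 (adjusted p 0.0306 in limma), at 3287 ± 593 in KO and 4230 ± 462 in flox, and Fasn, Acaca and Scd1 were not listed.

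The members were also compared with other genes across libraries of the same group. For this, each gene's log2(normalised count + 1) was taken as its deviation from the group mean, so that the genotype difference does not enter, and set over 16 libraries against 2334 other listed genes that averaged 10 or more. The points share each library's size factor, and the r values of nearest genes are descriptions.

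The nearest genes to Fads1 were Kif23, a kinesin of cytokinesis (r = 0.94), Melk, a mitotic kinase (r = 0.94), and Spc25, a kinetochore subunit (r = 0.93). The median r of Fads1 over all genes compared was -0.05. Over 16 listed proliferation markers its r had a median of 0.86, from 0.53 for Mcm4 to 0.92 for Mcm7. Elovl5 lay nearest to Npm1, a nucleolar protein (r = 0.87), Vrk1, a nuclear kinase (r = 0.86), and Snrpd1, a core protein of the spliceosome (r = 0.85), with a median of 0.76 over the proliferation markers against -0.05 over all genes. Over the same markers the median r was 0.35 for Idi1, 0.37 for Sqle and -0.14 for Tm7sf2. Over all genes it was -0.10, -0.01 and 0.09 for these members.

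Sqle lay nearest to Fdft1, the enzyme just before it in the pathway (r = 0.83, with 0.84 within KO and 0.87 within flox). Its next were Terf1, a telomere protein (r = 0.71, but 0.26 within KO), and Wls, which escorts Wnt proteins to the cell surface (r = 0.63). Idi1 lay nearest to Hnrnpa3 (r = 0.88) and Syncrip (r = 0.80), both RNA-binding proteins, and the zinc finger gene Zfp758 (r = 0.80), and its r with Fdft1 was 0.46. Tm7sf2 lay nearest to Plekhh3 (r = 0.77), Mea1 (r = 0.76) and Flot1, a membrane scaffold protein (r = 0.76).

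Among 30 relations tested in 1 family, namely the 10 pairs of members and each member against 4 marker scores, 3 passed adjustment by both Pearson and Spearman. Fads1 went with the proliferation score, which is the sum of log2(normalised count + 1) over the 16 markers. Pearson's r was 0.92 (permutation p = 2.0e-05, adjusted 0.0006) and Spearman's rho 0.85 (permutation p = 0.00019, adjusted 0.0057), from 100000 resamples within groups over 16 libraries. Pearson's r was 0.80 within KO and 0.96 within flox. It was 0.90 without the 2 libraries farthest from the median of the score, taken as its deviation from the group mean. Elovl5 went with the same score, at r = 0.81 and rho = 0.81 (permutation p = 0.00034 and 0.00043, adjusted 0.0051 and 0.00645). That r was 0.96 within KO, 0.74 within flox and 0.68 without the 2 farthest libraries. Fads1 and Elovl5 went together at r = 0.69 and rho = 0.72 (permutation p = 0.00491 and 0.00387, adjusted 0.0491 and 0.0387). For this pair r was 0.79 within KO and 0.66 within flox. It was 0.78 without the 2 libraries farthest from the median by their Fads1 deviation. Idi1 and Sqle had r = 0.53 and rho = 0.58 (permutation p = 0.0417 and 0.0276, adjusted 0.250 and 0.166), which did not pass. Tm7sf2 and the enterocyte score came nearer but did not pass either, at r = 0.58 and rho = 0.67 (permutation p = 0.0143 and 0.00721, adjusted 0.107 and 0.0541). That r was 0.48 within KO and 0.69 within flox.

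**Figure D3:**
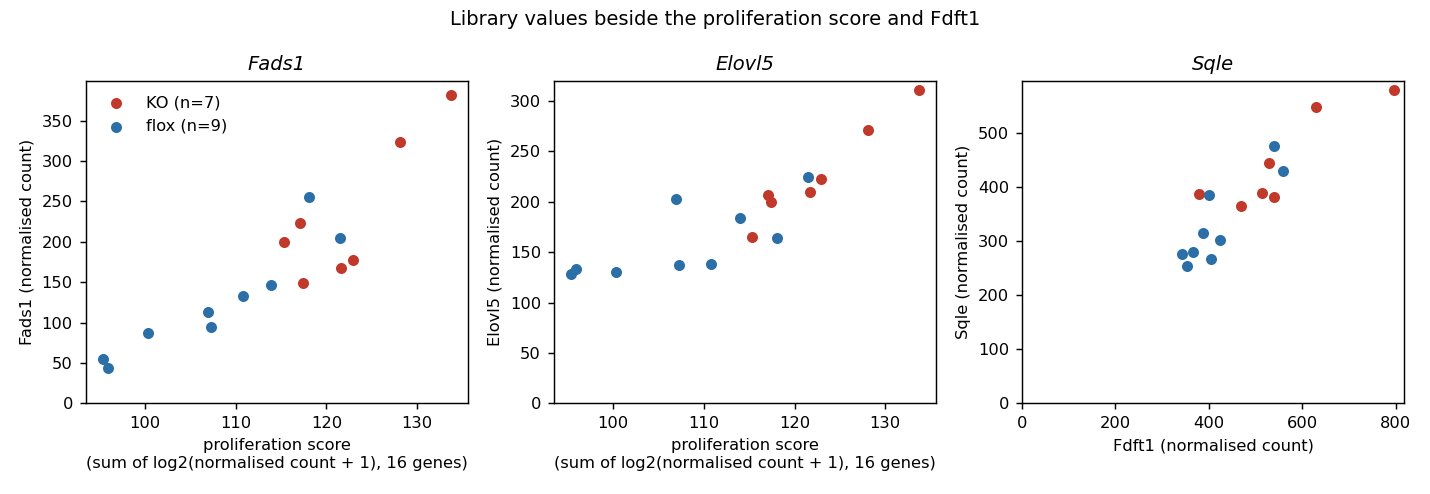
Left and middle, normalised count of Fads1 and Elovl5 (vertical axes) against the proliferation score (horizontal axes, sum of log2 values over 16 genes); right, Sqle against Fdft1, both in normalised counts. Each point is 1 library (7 KO, 9 flox); Fads1 was at 382 in the KO library with the highest score of 133.7 and at 43.6 in a flox library with a score of 95.9.

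The marker scores themselves differed between the groups. This was largely fixed in advance, since each score was summed over markers selected as different between the same groups. Their ranges are therefore descriptions and no separate result on cell content. The proliferation score ran from 115.3 to 133.7 in KO and from 95.3 to 121.5 in flox. Of 25 proliferation markers 16 were listed (64%, beside 14.8% of all genes adjusted over), all higher in KO. In limma 9 passed as higher, where 19.2% of the 2339 listed genes did. The 16 had summed levels of 2964 to 6479 in KO and 1183 to 3856 in flox, with no marker at 0 in any library. With this score as a covariate the log2 difference was -0.14 for Fads1 and 0.07 for Elovl5 (adjusted p 1 for both), and 0.48 for Idi1, 0.21 for Sqle and -0.25 for Tm7sf2 (adjusted p 0.539, 1 and 0.906, limma). The score was also higher in KO, and its part in the members' differences was not tested beyond this fit. In bulk samples, more cells of a type and more RNA per cell cannot be told apart either.

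Of 15 markers of mature enterocytes 7 were listed (46.7%, beside 14.8% of all genes adjusted over), all lower in KO. None was at 0, with sums of 379069 to 621080 in KO and 579120 to 822177 in flox, so the labelled tissue carried its defining transcripts in every library. With their score as a covariate the log2 difference was 0.29 for Idi1, 0.45 for Sqle, -0.01 for Tm7sf2, -0.04 for Fads1 and 0.09 for Elovl5, with an adjusted p of 1 for each in limma. The enterocyte score ran from 109.1 to 113.3 in KO and from 112.9 to 116.7 in flox, and 6 KO libraries were below every flox library. The fit with this covariate could therefore hardly separate the score from the genotype. Of 36 markers of lymphocytes, mast cells, stroma, endothelium and macrophages 9 were listed (25%), all higher in KO. Their sums were 692 to 2530 in KO and 584 to 1532 in flox, with Lum at 0 in at least 1 library of each group. The non-epithelial score ran from 44.5 to 62.3 in KO and from 39.0 to 50.9 in flox, and 5 KO libraries were above every flox library. With that score as a covariate Idi1 was at 0.51, Sqle 0.50, Tm7sf2 -0.26, Fads1 0.98 and Elovl5 0.32, again with an adjusted p of 1 for each in limma.

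Of 31 pancreatic acinar markers 24 were listed (77.4%, beside 14.8% of all genes adjusted over), all lower in KO. Their sums were 403 to 1826 in KO and 399 to 146146 in flox, and 15 of them were at 0 in at least 1 KO library against 13 in flox. Without the 5 flox libraries above 5000 the log2 differences were 0.53 for Idi1, 0.50 for Sqle, -0.24 for Tm7sf2, 1.48 for Fads1 and 0.58 for Elovl5. With 4 flox libraries left, 0 of the 5 members passed limma (adjusted p 0.148, 0.138, 0.650, 0.0835 and 0.152) and 4 had an unadjusted p under 0.05. The part of these transcripts in the members' differences was not tested.

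The members also differed in base composition. The longest transcript of Idi1 was 41.9% G and C and that of Elovl5 44.8%, against a median of 51.2% over the listed genes and 48.6% for Sqle, 51.0% for Tm7sf2 and 52.2% for Fads1. With a cubic trend on GC removed in each library the log2 difference was 0.23 for Idi1, 0.29 for Sqle and 0.17 for Elovl5, while it was -0.29 for Tm7sf2 and 1.06 for Fads1, and 0 of the 5 passed limma, with 2 (Tm7sf2 and Fads1) at an unadjusted p under 0.05. When reads were recovered from the normalised counts, edgeR called 2 members higher and 1 lower, where it called 21.1% of listed genes higher and 35.1% lower. DESeq2 called 3 higher and 1 lower, where 37.3% and 53.0% were called, but the submitters' notes name DESeq2 too, so this nearly repeats their selection.

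**Figure D4:**
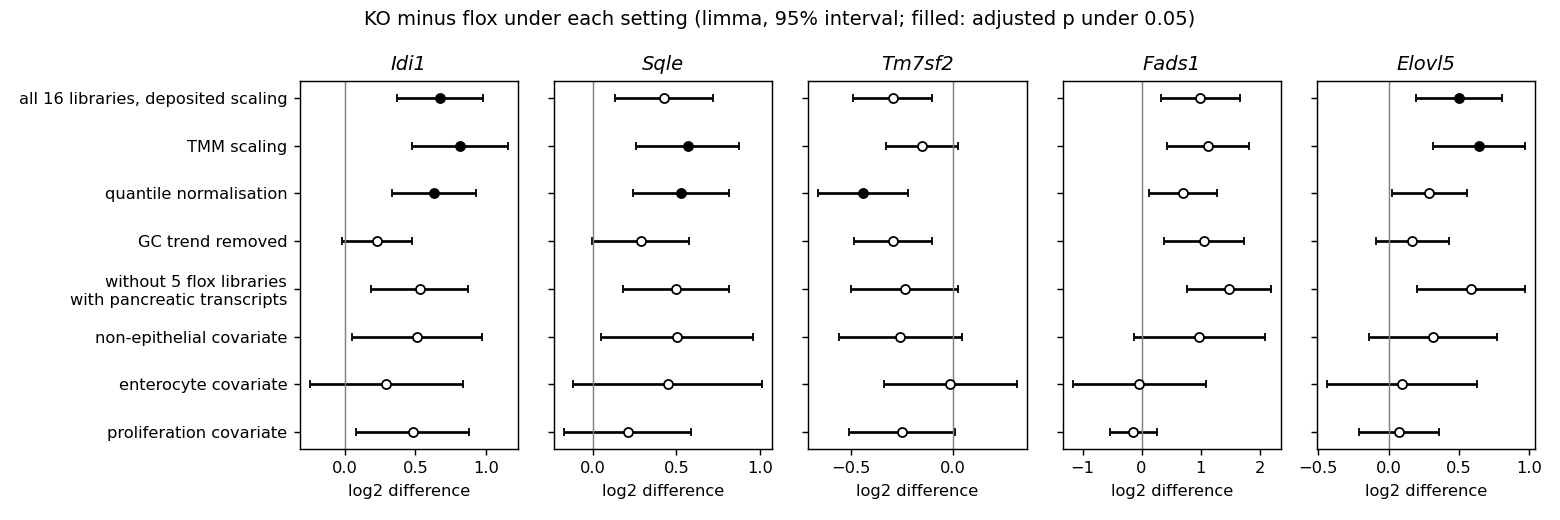
Log2 difference of KO minus flox with its 95% interval (horizontal axes) for each enzyme gene under 8 settings of the limma fit (rows), with filled points at an adjusted p under 0.05. Idi1 was filled in the upper 3 rows, and Fads1 was at -0.04 with the enterocyte covariate and -0.14 with the proliferation covariate.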

How the data were processed

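RNA sequencing was done on 16 libraries, 7 KO and 9 flox. The submitters' processing notes name DESeq2 1.20.0, HISAT2 2.0.5, featureCounts 1.5.0-p3 and the build GRCm38 (mm10), without settings. The signal columns deposited by the authors hold read counts divided by 1 size factor per library. Divided by the smallest step of its library, 100% of values came out whole within 0.0001 reads (for KO replicates 1 and 3 this had no automatic check), and size factors ran from 0.878 to 1.38. The authors' deposited p-values and log2 fold changes were copied as such, and their adjustment ran over 16488 genes. The total depth is unknown, since only listed genes were used here.

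limma 3.58.1 (trend, robust) was fitted to log2(normalised count + 1) of 2339 listed genes that averaged 10 or more, all 16 libraries, no covariate. Its p-values were adjusted over 16488 genes with unlisted genes at a p of 1. A fold change on this scale understates changes of low genes. edgeR 4.0.16 and DESeq2 1.42.0 were run on recovered reads. The code was tested on simulated data. Gene lengths were the deposited ones, and overlaps and transcript GC came from GENCODE M21 (2437 of 2438 genes matched). Members, lists and alternatives were chosen with earlier results of these data known. Named genes were the members, Ephb4, every listed gene of the 4 lipid lists, and the 3 genes nearest to each member, except that some list genes are not reported here. Markers and genes not listed that are named as such were chosen after their values were seen.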

Additional observations from a re-analysis of the deposited data

Results flagged for a closer look

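Among 30 sets of libraries examined for a library standing apart from its group (15 named genes in 2 groups), 2 were flagged, and chance flags about 1 in 20. Ephb4 in KO replicate 1 had 84.7 normalised counts, where the next KO library had 37.3. The same library held the highest Fads1 and Elovl5 values of all 16 libraries. Without it the log2 difference was 0.86 for Fads1 and 0.42 for Elovl5. Mylip in flox replicate 2 had 62.4 normalised counts, where the next flox library had 29.4. None of the 5 enzyme genes had such a library in either group.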

How the results depend on the processing

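Because the table was restricted to the authors' own calls, scaling, GC trends and counts of calls rest on those genes alone, and the depth outside them is unknown. Of the 5 members, 2 passed limma. This count was 3 with TMM scaling, quantile normalisation or edgeR, 4 with DESeq2, and 0 with the non-epithelial, enterocyte or proliferation score as a covariate, with the GC trend removed, or without 5 flox libraries, those that carried pancreatic transcripts. It was 1 with edgeR and 1 with DESeq2 without KO replicates 1 and 3 (Idi1 in both), where 380 and 1158 of 2318 genes were called. That pair held the highest Fads1 and Elovl5 values, so lower differences for these genes were fixed in advance there. The proliferation covariate, the GC trend, the left-out pancreatic libraries and the left-out KO pair were chosen after seeing the data. The causes were not tested.

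Log2 differences that came to pass were 0.57 (TMM) and 0.53 (quantile) for Sqle, -0.44 (quantile), -0.31 (edgeR) and -0.31 (DESeq2) for Tm7sf2, and 0.88 (DESeq2) for Fads1. Those that no longer passed were, for Idi1, 0.51 (non-epithelial covariate), 0.29 (enterocyte covariate), 0.48 (proliferation covariate), 0.53 (without the pancreatic libraries) and 0.23 (GC trend removed). For Elovl5 they were 0.29 (quantile), 0.32, 0.095 and 0.074 (the same 3 covariates in that order), 0.58 (without the pancreatic libraries), 0.17 (GC trend removed) and 0.33 (edgeR and DESeq2 without KO replicates 1 and 3). Fads1 reversed to -0.036 with the enterocyte covariate and -0.14 with the proliferation covariate. Pseudocounts of 5 and 0.1 and no filter on low values changed no member's call.

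Over all listed genes limma called 1269, against 913 with TMM, 355 with quantile normalisation, 7, 2 and 9 with the 3 covariates, 11 without the pancreatic libraries, 348 with the GC trend removed and 2112 with DESeq2. The median log2 difference of all genes was -0.25, and -0.10 with TMM.

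With 1 library left out at a time, the log2 difference ran from 0.60 to 0.74 for Idi1, 0.36 to 0.49 for Sqle, -0.33 to -0.26 for Tm7sf2, 0.83 to 1.14 for Fads1, 0.42 to 0.57 for Elovl5 and -2.73 to -2.40 for Ephb4, and 1 to 4 members passed, while the genes called over the whole table ran from 518 (without KO replicate 7) to 1462 (without KO replicate 2). That total was under 1269 by more than 1.5 times without KO replicate 1 (646), 5 (622) or 7 (518) and without flox replicate 3 (615), 4 (839) or 10 (646). The difference between members ran from 0.20 to 0.32 for Idi1 over Sqle, -0.43 to -0.16 for Idi1 over Fads1, 0.03 to 0.24 for Idi1 over Elovl5, -0.66 to -0.37 for Sqle over Fads1, -0.21 to -0.01 for Sqle over Elovl5 and 0.36 to 0.64 for Fads1 over Elovl5, and none of these passed.

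The 6 replicate numbers that both groups share showed no pairing of the libraries by this measure. Same-numbered deviations had r from -0.43 to 0.37, and 1 of 6 was best with its own number. The labels do not say whether the numbers pair the libraries, and these correlations cannot exclude it. With the replicate block Idi1 was at 0.67 (adjusted p 0.161), Sqle 0.47 (0.289), Tm7sf2 -0.33 (0.344), Fads1 1.27 (0.205) and Elovl5 0.62 (0.157), and 0 members and 9 genes passed. In the same 12 libraries without the block Idi1 was at 0.67 (adjusted p 0.0472), so the block ended its call, Elovl5 was at 0.62 (adjusted p 0.0595), and 1 member and 355 genes passed.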
